A study of Homo sapiens with 12 samples.

Results

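An Affymetrix expression array reads many genes with several probe sets, and 62 genes had probe sets that moved in opposite directions in cells exposed to Kbr for 48 h. They were taken from the 5192 genes that had at least 2 passing probe sets, and made up 1.19% of them. A probe set passed if the array annotation tied it to a single gene and its log2 signal exceeded 4 in at least 3 of the 12 arrays. A gene was taken if the mean of the Kbr 48 h arrays minus the mean of the control 48 h arrays was at least 0.8 (log2) in one passing probe set and at most -0.8 in another. The 62 genes held 224 passing probe sets, of which 83 met the upper limit, 74 met the lower limit and 67 lay between them. These are called up-moving, down-moving and between probe sets here, names that state the selection and not a test. A further 61 probe sets of the same genes did not pass and were not used.

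The cells were HK-2, a human cell line of kidney proximal tubule origin that was immortalised, grown in medium with added EGF, insulin and hydrocortisone. The 4 groups were a high dose of Kbr for 24 h, vehicle control for 24 h, a high dose of Kbr for 48 h and vehicle control for 48 h, with 3 arrays each, labelled as biological replicates. The series asked how exposure to Kbr changed gene expression as a signature of kidney cell toxicity. What Kbr stands for, the dose and the vehicle are not spelled out in the labels.

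One gene can yield several messenger RNAs. Cleavage and polyadenylation at an early or a late site changes the 3′ end, alternative promoters change the 5′ end, and an intron that stays in the transcript adds sequence that other transcripts of the gene lack. A probe set is a group of short probes against one stretch of a transcript, usually close to the 3′ end of the sequence it was designed from. Probe sets of one gene designed from different transcripts or expressed sequence tags can therefore read different transcript forms. The positions of these probes in the genes were not used here, so whether transcript ends or retained introns differed was not tested.

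The arrays were alike in distribution, with median signals between 2.89 and 2.96 (log2) and between 39.1% and 39.9% of probe sets above 4. The signal of the 3′ probe set of GAPDH, a glycolytic enzyme used as an RNA integrity control, minus that of its 5′ probe set was -0.10 ± 0.04 in Kbr and -0.11 ± 0.05 in control at 24 h, and -0.11 ± 0.04 in Kbr and -0.09 ± 0.05 in control at 48 h (SD, n = 3 each). The same difference for ACTB was 0.93 ± 0.20 in Kbr and 0.83 ± 0.18 in control at 24 h, and 1.04 ± 0.19 in Kbr and 0.87 ± 0.23 in control at 48 h, with overlapping arrays. Of the cell type markers, 4 of 4 epithelial and 4 of 11 proximal tubule markers passed. The brush border and uptake markers GGT1, ANPEP, CUBN, LRP2, SLC34A1 and AQP1 were below the filter. Of the other lists, 3 of 4 fibroblast markers, 1 of 4 squamous markers and 1 of 5 endothelial and leukocyte markers passed, the last being TEK near the filter level. Several of these moved with Kbr at 24 h (limma): 3 of 4 passing proximal tubule markers, 1 of 4 epithelial, 3 of 3 fibroblast and the 1 squamous marker were lower, and PAX8 was higher. COL1A1 averaged 6.73 ± 0.46 in Kbr 24 h and 8.82 ± 0.23 in control 24 h, and CDH1 averaged 4.90 ± 0.92 in Kbr 24 h and 7.06 ± 0.22 in control 24 h (log2, SD, n = 3 each). The summed signal of the passing fibroblast markers lay between 11.4 and 11.8 (log2) in Kbr 24 h, against 12.4 to 12.9 in control 24 h, while PDGFRB stayed under the filter; the part of these changes in the results was not tested. The summed RNA of a culture cannot tell fewer cells of a kind from less RNA per cell.

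Kbr 48 h replicate 3 stood apart in these genes. Over the 224 probe sets it lay 0.297 (log2, root mean square) from the mean of its group, against 0.175 to 0.242 for the other arrays. Choosing the genes without it gave 68 genes, 52 of them among the 62. Leaving it out for the 24 h test, with the 62 genes as chosen, changed only the estimate of the spread, and 28 genes were then called where 27 were called with it.

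**Figure D1:**
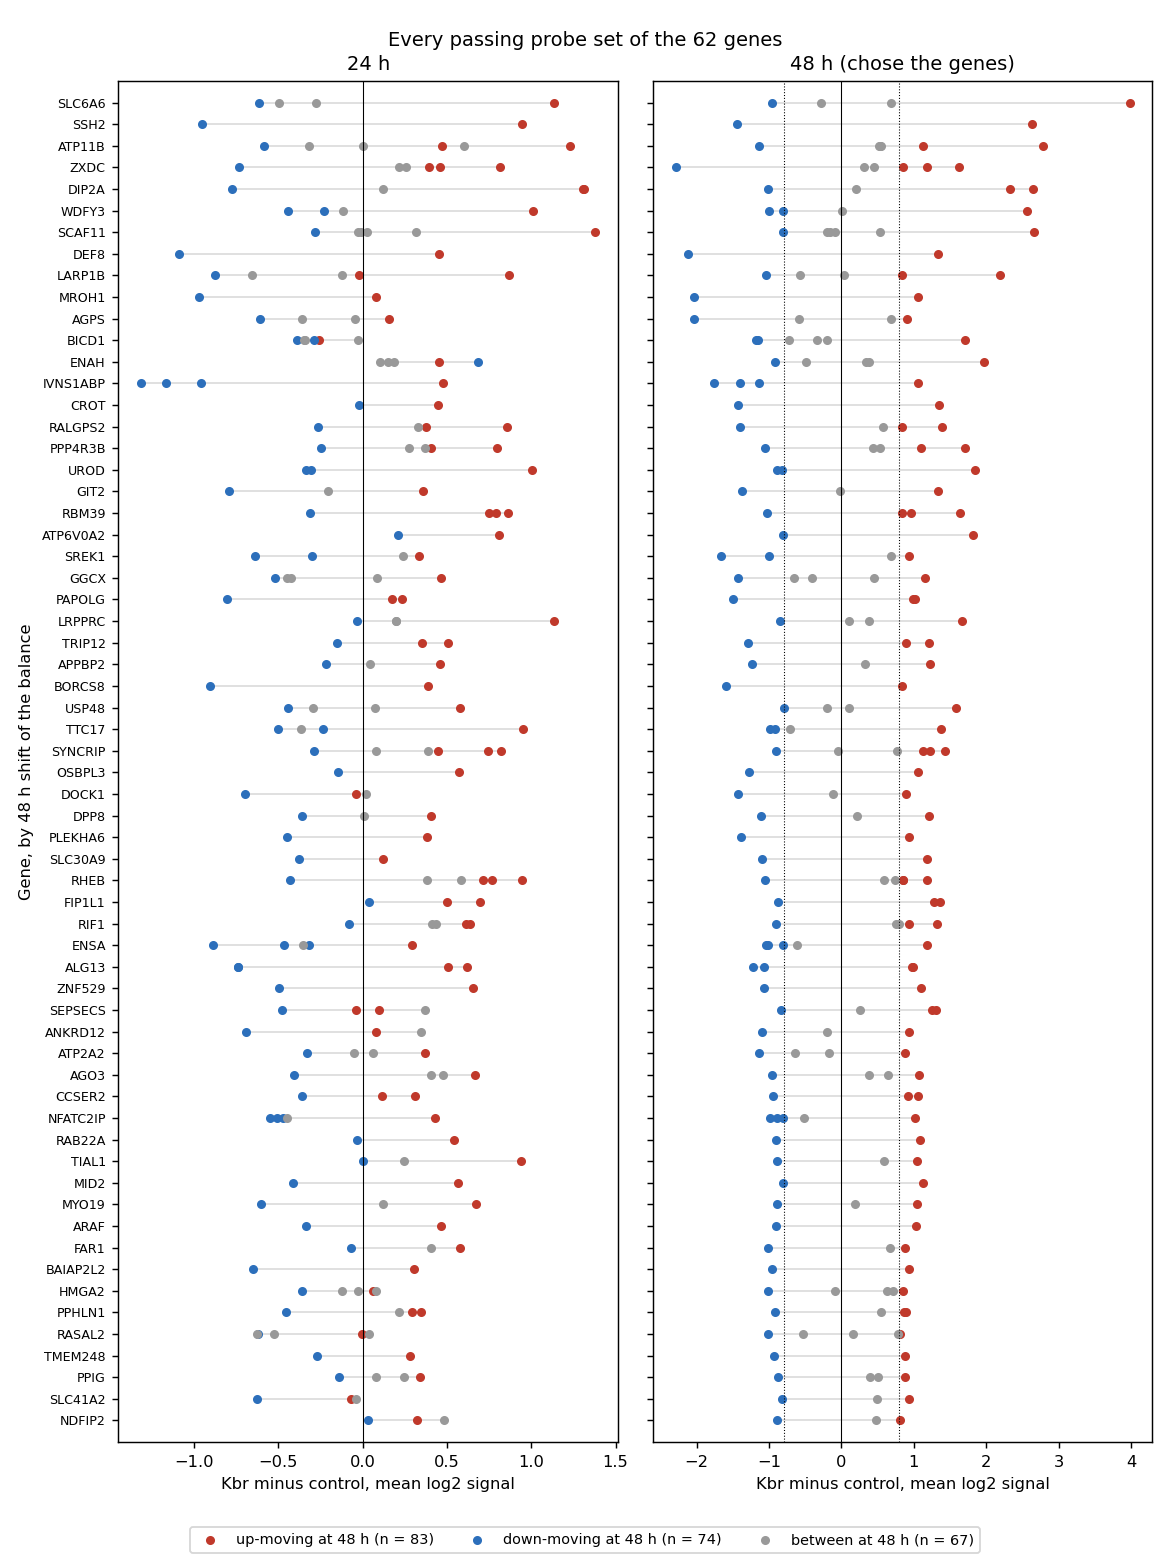
Change of each passing probe set of the 62 genes, Kbr minus control in log2, at 24 h (left) and at 48 h (right). Each row is a gene and each point a probe set, coloured by its class at 48 h. The gap between -0.8 and 0.8 separates up-moving from down-moving points at 48 h because the selection made it; at 24 h, whose changes did not enter those limits, up-moving points ran from -0.26 to 1.38 and down-moving points from -1.31 to 0.68.

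At 24 h, whose changes did not enter the limits of 0.8, the pairs were tested for the same move. For each gene the balance was taken as the log2 signal of the probe set with the highest 48 h change minus that of the probe set with the lowest, array by array. Both signals come from the same array and RNA, and a level common to both cancels. The balance shifted toward the up-moving probe set in 27 of the 62 genes at an adjusted p below 0.05 (limma, Benjamini-Hochberg over 5192 genes), where 5.20% of all genes with 2 or more passing probe sets did so. No member was called in the other direction, where the share over all such genes was 0.0770%. In 4 members (CROT, PPP4R3B, UROD and WDFY3) a probe set of the pair lay under the filter level of 4 in every control 24 h array, so the size of their shifts is not well measured. Without such pairs, 25 of 58 members were called, against 4.87% of 4910 genes. The 24 h arrays did enter the filter on low signals; with that filter on the 48 h arrays alone, an alternative added after seeing the data, the same 62 genes were chosen and 27 were called, against 5.12% of 5096 genes.

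The 24 h shift was above 0 in 61 of the 62 genes and below 0 in ENAH, a regulator of actin filaments. Over all genes with 2 or more passing probe sets, 77.0% had a shift above 0. The median shift of the members was 0.94 (log2), with a range of -0.23 to 2.09, against a median of 0.16 over all those genes. In 49 members every Kbr 24 h array was above every control 24 h array, where 25.0% of all those genes had such an order. Set against control, the median shift was 0.92 in Kbr 24 h replicate 1, 0.95 in replicate 2 and 0.79 in replicate 3, so no single Kbr array carried it.

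The count of 27 depended on single arrays. It was 14 (2.85% of all genes) without Kbr 24 h replicate 1 and 11 (2.52%) without Kbr 24 h replicate 2. It was 11 (2.18%) without the array of control 24 h replicate 1 and 15 (3.20%) without that of replicate 2. The main fit did not use the replicate number, and with that number as a block the count was 39 (11.1% of all genes). Nor was a shift at 24 h particular to genes whose probe sets moved in opposite directions. Another 281 genes had a 48 h shift of the balance of at least 1.70, the smallest among the members, without meeting both limits. Of these, 105 (37.4%) were called at 24 h, against 43.5% of the members, and their median 24 h shift was 0.85. Their median 48 h shift was 2.05, against 2.33 in the members.

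**Figure D2:**
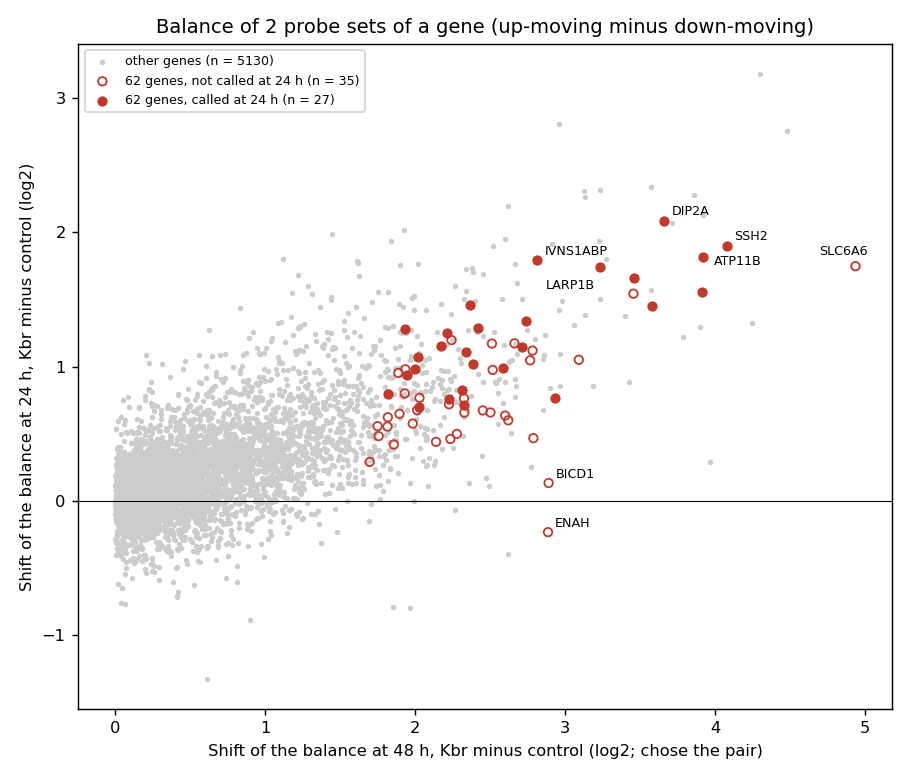
Shift of the balance in Kbr against control at 24 h (vertical, log2) plotted against the shift at 48 h (horizontal, log2), 1 point for each of the 5192 genes. Filled points are the 27 members called at 24 h, open points the 35 not called and grey points the other 5130 genes. The members lie to the right by selection, and 61 of them lie above 0 at 24 h.

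Up-moving and down-moving probe sets both moved at 24 h. Among the 83 up-moving probe sets, 29 were called higher at 24 h and 0 lower (limma, adjusted over 19345 probe sets), where 11.7% of all passing probe sets were called higher. Their median 24 h change was 0.47 (log2), and 77 were above 0. Among the 74 down-moving probe sets, 26 were called lower, where 15.3% of all were, and 1 was called higher. Their median 24 h change was -0.44, and 69 were below 0. The 67 between probe sets had a median of 0.07, with 9 called higher and 3 lower. With the replicate number as a block, 45 up-moving probe sets were called higher and 42 down-moving ones lower, where 18.7% and 24.2% of all passing probe sets were. Without Kbr 24 h replicate 2 the up-moving count was 19, and without control 24 h replicate 1 the counts were 16 up-moving and 16 down-moving. The shares over all passing probe sets were not counted without these arrays, so these counts are not read alone.

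In 5 genes both probe sets of the pair were called in their own direction at 24 h, namely DIP2A, SCAF11, TTC17, MYO19 and ALG13; 0.173% of all genes with 2 or more passing probe sets met that condition. The next counts take any up-moving or down-moving probe set of a gene, in the pair or not. Only up-moving ones were called in their own direction in 17 genes, only down-moving ones in 15 and neither in 25. The 17 include FIP1L1, whose called probe set was not the one in its pair. The shares over all genes were not counted for these. The limits of 0.8 each way, applied to the 24 h means, were met by 2 genes in the whole table, LARP1B and SSH2, both members.

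The members are described below by role, to order them. Over all members 43.5% were called at 24 h, against 5.20% of all genes with 2 or more passing probe sets. Whether any role differed from the other members was not tested. Genes of RNA processing and RNA binding formed one group of 11 members, with 5 called at 24 h and a median shift of 1.07. It held FIP1L1, PAPOLG, RBM39, SYNCRIP, TIAL1, SREK1, SCAF11, PPIG, LARP1B, AGO3 and LRPPRC. SCAF11 encodes a nuclear protein tied to splicing that has stretches rich in serine and arginine. Its up-moving probe set 235579_at gave 8.16, 8.29 and 7.98 (log2) in the Kbr 24 h arrays, against 6.74, 6.60 and 6.95 in the control 24 h arrays, a change of 1.38 ± 0.20 (SE, adjusted p = 0.001). Its down-moving probe set 225336_at gave 10.00, 9.90 and 9.94 in Kbr 24 h, against 10.27, 10.26 and 10.15 in control 24 h, a change of -0.28 ± 0.08 (adjusted p = 0.0307). The groups did not overlap in either probe set. At 48 h 235579_at stood at 9.69, 9.50 and 8.79 in Kbr, against 6.75, 6.63 and 6.61 in control. The other 4 probe sets of SCAF11 had 24 h changes between -0.03 and 0.32, none of them called. The balance of SCAF11 shifted by 1.66 ± 0.23 (adjusted p = 0.00223).

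LARP1B encodes a La-related RNA-binding protein. Its probe set 226750_at gave 8.71, 8.49 and 8.70 in Kbr 24 h, against 7.72, 7.53 and 8.05 in control 24 h. Its probe set 242153_at gave 5.86, 5.60 and 5.27 in Kbr 24 h, against 6.63, 6.22 and 6.51 in control 24 h. Each change alone missed the threshold (adjusted p = 0.0727 and 0.1), while the balance, in which variation common to both probe sets cancels, shifted by 1.74 ± 0.19 (adjusted p = 0.000656). That was the smallest adjusted p among the members. At 48 h 242153_at gave 6.77, 6.37 and 4.99 in Kbr, against 6.86, 7.27 and 7.13 in control, so Kbr replicate 3 lay far below the other arrays of its group.

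SYNCRIP encodes hnRNP Q, a binder of messenger RNA, and had 6 passing probe sets. The 3 up-moving ones were all called higher at 24 h, with changes of 0.45, 0.74 and 0.82. The between probe set 209024_s_at was also called higher, with a change of 0.39 (adjusted p = 0.0186). The down-moving 217833_at gave 9.67, 9.52 and 9.67 in Kbr 24 h, against 9.86, 9.98 and 9.88 in control 24 h, a change of -0.29 that missed the threshold (adjusted p = 0.0851) though the groups did not overlap. The balance shifted by 1.11 ± 0.16 (adjusted p = 0.00228). The 3 up-moving probe sets all carry the ending _s_at, which marks probes shared by several transcripts. Without probe sets ending _s_at or _x_at another pair took the place of this one, and its shift was 0.37 (adjusted p = 0.264).

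FIP1L1 and PAPOLG, described because of their function after their values were seen, belong to the machinery that makes 3′ ends. FIP1L1 is a subunit of the cleavage and polyadenylation specificity factor. Its probe set 221007_s_at rose by 0.69 ± 0.15 at 24 h (adjusted p = 0.00637), and the up-moving probe set of the pair, 1554424_at, changed by 0.50 (adjusted p = 0.101). Its down-moving 227293_at changed by 0.04 (adjusted p = 0.848). PAPOLG, a poly(A) polymerase, had the reverse order: its down-moving 222273_at fell by 0.80 ± 0.20 on the log2 scale (adjusted p = 0.0151), and its 2 up-moving probe sets changed by 0.17 and 0.23 without being called. The shift of the balance was 0.46 in FIP1L1 (adjusted p = 0.327) and 0.97 in PAPOLG (adjusted p = 0.101). The PAPOLG shift was called with the replicate block (adjusted p = 0.0112) and without control 24 h replicate 3 (adjusted p = 0.0364).

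Genes of membrane transport, vesicles and lysosomes numbered 10, with 5 called and a median shift of 0.71. They were SLC6A6, SLC30A9, SLC41A2, ATP2A2, ATP11B, ATP6V0A2, OSBPL3, RAB22A, BORCS8 and WDFY3. SLC6A6, the taurine transporter, had a 48 h shift of 4.93 in group means, a value that chose the gene. Its probe set 211030_s_at gave 7.43, 7.54 and 7.95 in Kbr 48 h, against 2.76, 2.84 and 5.38 in control 48 h, so control replicate 3 stood well above the rest of its group and the other arrays lay under the filter level, where the size of a log2 difference is not well measured. At 24 h the same probe set gave 6.24, 6.76 and 6.66 in Kbr, against 4.97, 4.84 and 6.45 in control, with overlap. Its other probe set of the pair, 228754_at, gave 10.40, 10.45 and 10.64 in Kbr 24 h, against 10.82, 11.11 and 11.39 in control 24 h. The 24 h balance shifted by 1.75 ± 0.48 and missed the threshold (adjusted p = 0.0599). It was called with the replicate block (adjusted p = 0.0188), and on leaving out replicate 3 of control 24 h (shift 2.12, adjusted p = 0.0369), replicate 2 of control 48 h (adjusted p = 0.0369) or replicate 3 of control 48 h (adjusted p = 0.013), and with signals under 4 set to 4 (adjusted p = 0.0106).

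ATP11B, a phospholipid flippase, had 6 passing probe sets. The up-moving 1554557_at gave 6.93, 7.00 and 6.13 in Kbr 24 h, against 5.48, 5.16 and 5.74 in control 24 h, a change of 1.23 ± 0.23 (adjusted p = 0.00345). The down-moving 212536_at gave 7.95, 7.92 and 7.51 in Kbr 24 h, against 8.49, 8.55 and 8.10 in control 24 h, a change of -0.58 that was not called (adjusted p = 0.053) although the arrays did not overlap. With the replicate block that change was called (adjusted p = 0.00395). The balance shifted by 1.81 ± 0.25 (adjusted p = 0.00222), and the remaining 4 probe sets changed by -0.32 to 0.60 at 24 h.

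BORCS8, a subunit of the BORC complex that positions lysosomes, moved mainly through its down-moving probe set. That probe set, 1553978_at, gave 8.04, 8.41 and 8.61 in Kbr 24 h, against 9.22, 9.16 and 9.38 in control 24 h, and fell by 0.90 ± 0.14 on the log2 scale (adjusted p = 0.00122). Its 209926_at gave 6.05, 6.27 and 6.01 in Kbr 24 h, against 5.88, 5.97 and 5.34 in control 24 h, with a change of 0.38 (adjusted p = 0.0873). The balance shifted by 1.29 ± 0.21 (adjusted p = 0.00643). WDFY3, a scaffold for the autophagy of protein aggregates, had an up-moving probe set, 238660_at, at 4.60, 4.83 and 3.68 in Kbr 24 h, against 3.01, 3.51 and 3.55 in control 24 h. It exceeded 4 in only 5 arrays, all of them Kbr arrays, so it passed the filter through the group where it was high. The fitted shift of WDFY3 was 1.45 ± 0.31 (adjusted p = 0.0211), and with signals under 4 set to 4 it was 0.92 (adjusted p = 0.0412). That setting also raised Kbr 24 h replicate 3, so 0.92 is not a strict lower bound. The WDFY3 call was lost without any of Kbr 24 h replicates 1 and 2 and control 24 h replicates 1 and 2 (adjusted p between 0.0609 and 0.0915).

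**Figure D3:**
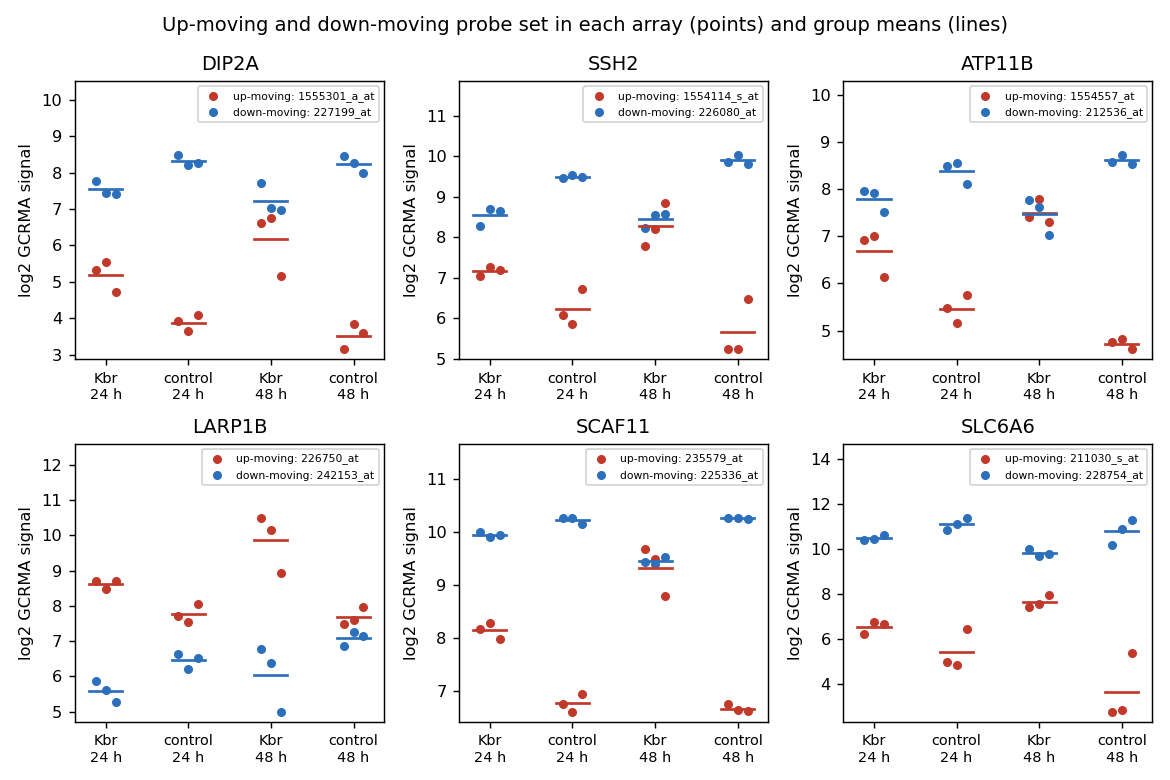
Log2 signal of the up-moving and the down-moving probe set of lead genes in each array, with Kbr left of control at each time. Points are arrays and short lines are group means (n = 3). The 48 h arrays chose the pairs; at 24 h the Kbr arrays of SCAF11 lay above control in the up-moving probe set and below control in the down-moving one.

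Genes of the cytoskeleton, small GTPases, kinases and phosphatases were the largest group, with 15 members, 5 called and a median shift of 0.98. They were BICD1, ENAH, SSH2, DOCK1, GIT2, RALGPS2, RASAL2, RHEB, ARAF, MYO19, BAIAP2L2, MID2, IVNS1ABP, ENSA and PPP4R3B. SSH2, a slingshot phosphatase that activates the actin-severing protein cofilin, had a down-moving probe set, 226080_at, at 8.28, 8.70 and 8.65 in Kbr 24 h, against 9.48, 9.54 and 9.49 in control 24 h. It fell by 0.95 ± 0.13 on the log2 scale (adjusted p = 0.000833). Its up-moving 1554114_s_at gave 7.06, 7.26 and 7.20 in Kbr 24 h, against 6.07, 5.87 and 6.74 in control 24 h, and was not called (adjusted p = 0.0753). No array overlapped between the groups in either. The balance shifted by 1.90 ± 0.36 (adjusted p = 0.0116), and the call was lost without control 24 h replicate 1 (adjusted p = 0.0534).

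MYO19, a myosin of mitochondria, had an up-moving probe set, 219320_at, at 7.29, 7.38 and 7.43 in Kbr 24 h, against 6.55, 6.68 and 6.86 in control 24 h, a rise of 0.67 ± 0.15 (adjusted p = 0.00827). Its down-moving 225947_at gave 9.34, 9.35 and 9.51 in Kbr 24 h, against 10.19, 9.84 and 9.97 in control 24 h, a change of -0.60 ± 0.13 (adjusted p = 0.00685). The remaining MYO19 probe set changed by 0.12 and was not called. IVNS1ABP, a kelch protein first described as a partner of an influenza protein, had a down-moving probe set, 201362_at, at 10.39, 10.37 and 9.87 in Kbr 24 h, against 11.91, 11.68 and 10.97 in control 24 h. It fell by 1.31 ± 0.35 on the log2 scale (adjusted p = 0.0183), the lowest 24 h change among the down-moving probe sets. Its up-moving 244235_at gave 5.02, 5.31 and 5.07 in Kbr 24 h, against 4.37, 4.57 and 5.03 in control 24 h, and was not called (adjusted p = 0.17). The balance shifted by 1.79 ± 0.35 (adjusted p = 0.0137). That call was lost on leaving out Kbr 24 h replicate 2 or 3 or control 24 h replicate 1 or 2 (adjusted p between 0.0504 and 0.0576).

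BICD1 and ENAH had the lowest 24 h shifts of the balance among the members, and were among the 35 not called. BICD1, an adaptor that links cargo to dynein, had 6 passing probe sets, and its up-moving 1554020_at gave 5.61, 5.70 and 5.73 in Kbr 24 h, against 5.76, 5.80 and 6.25 in control 24 h. At 48 h the same probe set gave 7.99, 7.95 and 6.04 in Kbr, against 5.67, 5.60 and 5.58 in control, so Kbr replicate 3 lay close to control. Its balance shifted by 0.13 ± 0.52 at 24 h (adjusted p = 0.933). ENAH, described after its values were seen, had a down-moving probe set, 228310_at, that rose by 0.68 ± 0.19 at 24 h (adjusted p = 0.0226) and was 0.92 lower at 48 h. Its up-moving 1553672_at changed by 0.45 at 24 h (adjusted p = 0.147), and its balance by -0.23 ± 0.28 (adjusted p = 0.727).

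Among enzymes, mostly of lipid, sugar, haem and cofactor chemistry, 4 of 7 members were called, with a median shift of 0.77. They were AGPS, FAR1, CROT, UROD, GGCX and ALG13, with SEPSECS, an enzyme of selenocysteine synthesis, counted among them. ALG13 encodes part of the enzyme that adds the second sugar to the lipid carrier of N-glycans. Its 219015_s_at gave 8.54, 8.52 and 8.87 in Kbr 24 h, against 7.97, 8.13 and 8.31 in control 24 h, a rise of 0.51 ± 0.13 (adjusted p = 0.0175). Its 205584_at gave 7.52, 7.21 and 7.18 in Kbr 24 h, against 8.24, 7.98 and 7.91 in control 24 h, a change of -0.74 ± 0.14 (adjusted p = 0.00316). The balance of ALG13 shifted by 1.25 ± 0.22 (adjusted p = 0.00835), with both probe sets of similar weight in it. UROD, the uroporphyrinogen decarboxylase of haem synthesis, had an up-moving probe set, 222074_at, at 5.44, 4.51 and 4.10 in Kbr 24 h, against 3.55, 3.65 and 3.84 in control 24 h, where no array reached the filter level. The fitted shift was 1.34 ± 0.34 (adjusted p = 0.0425). With signals under 4 set to 4 it was 1.02, a lower bound that was not called (adjusted p = 0.0865). The UROD call was lost on leaving out any 1 of the 12 arrays other than Kbr 24 h replicate 3 and control 48 h replicate 3 (adjusted p between 0.0533 and 0.123), and the shift was 0.86 without Kbr 24 h replicate 1.

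Of 7 members tied to chromatin, DNA and transcription, 4 were called, with a median shift of 0.80. They were HMGA2, RIF1, PPHLN1, ZNF529, ZXDC, ANKRD12 and NFATC2IP. ZXDC, a zinc finger protein, had 6 passing probe sets. Its down-moving 218639_s_at gave 6.90, 6.53 and 6.89 in Kbr 24 h, against 7.74, 7.44 and 7.34 in control 24 h, and fell by 0.73 ± 0.21 on the log2 scale (adjusted p = 0.0245). At 48 h it gave 4.83, 5.48 and 4.57 in Kbr, against 7.25, 7.28 and 7.22 in control, the lowest 48 h change of any down-moving probe set in the pairs. Its 3 up-moving probe sets changed by 0.39 to 0.82 at 24 h, none of them called. The balance shifted by 1.55 ± 0.34 (adjusted p = 0.0227). The call was lost without Kbr 24 h replicate 1 or 2 or control 24 h replicate 1 or 3 (adjusted p between 0.0548 and 0.0988). Without probe sets ending _s_at or _x_at, which removes 218639_s_at, another ZXDC pair took its place with a shift of 0.56 (adjusted p = 0.387).

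In the ubiquitin and peptidase group 1 of 5 members was called, with a median shift of 0.67. Its members were TRIP12, USP48, NDFIP2, APPBP2 and DPP8. USP48, a deubiquitinase, shifted by 1.02 ± 0.25 (adjusted p = 0.038). Its call was lost on leaving out Kbr 24 h replicate 1 or 2, Kbr 48 h replicate 1 or any control 24 h array (adjusted p between 0.0511 and 0.143). Without probe sets ending _s_at or _x_at another USP48 pair took the place of this one, and its shift was 0.50 (adjusted p = 0.129).

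The remaining 7 members, DIP2A, DEF8, MROH1, CCSER2, TTC17, TMEM248 and PLEKHA6, have other or less defined roles, and 3 were called. DIP2A had a 24 h shift of 2.09 ± 0.36 (adjusted p = 0.00744). Its up-moving 1555301_a_at gave 5.34, 5.54 and 4.71 in Kbr 24 h, against 3.91, 3.66 and 4.08 in control 24 h, a rise of 1.31 ± 0.38 (adjusted p = 0.0252). Its down-moving 227199_at gave 7.78, 7.44 and 7.41 in Kbr 24 h, against 8.49, 8.20 and 8.27 in control 24 h, a change of -0.78 ± 0.20 (adjusted p = 0.0173). The groups were apart in both, but the up-moving probe set exceeded 4 in only 7 arrays, 1 of them a control array. With signals under 4 set to 4, the shift was 1.94 (adjusted p = 0.00479).

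TTC17, a protein with tetratricopeptide repeats that is needed for cilia, shifted by 1.45 ± 0.17 (adjusted p = 0.000845). Its 218972_at gave 7.67, 7.37 and 7.45 in Kbr 24 h, against 6.75, 6.44 and 6.45 in control 24 h, a rise of 0.95 ± 0.13 (adjusted p = 0.000832). The down-moving 232323_s_at gave 6.59, 6.54 and 6.66 in Kbr 24 h, against 7.26, 7.00 and 7.05 in control 24 h, a change of -0.50 ± 0.13 (adjusted p = 0.0165). The other 2 TTC17 probe sets had 24 h changes of -0.23 and -0.37 and were not called, so 3 of the 4 probe sets were below 0 and 1 was above.

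DEF8 and MROH1 had large 48 h shifts, 3.45 and 3.09, and 24 h shifts of 1.54 ± 0.43 (adjusted p = 0.0609) and 1.05 ± 0.30 (adjusted p = 0.0714). In both genes the down-moving probe set was called at 24 h and the up-moving one was not. DEF8 225637_at gave 7.64, 6.92 and 7.42 in Kbr 24 h, against 8.65, 8.27 and 8.32 in control 24 h (adjusted p = 0.0388). MROH1 227778_at gave 5.18, 5.04 and 5.16 in Kbr 24 h, against 6.24, 6.09 and 5.96 in control 24 h (adjusted p = 0.0027). With the replicate block both balances were called (adjusted p = 0.0105 for DEF8 and 0.0284 for MROH1). The DEF8 balance was also called without Kbr 48 h replicate 3 (adjusted p = 0.0108), and the MROH1 balance without control 48 h replicate 1 (adjusted p = 0.00366).

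The members had more passing probe sets than other genes, with a median of 4 against 2, and a gene with more probe sets has more chances to meet the rule. More than 1 up-moving probe set was present in 17 genes and more than 1 down-moving in 9. By design record, 37.3% of up-moving and 51.4% of down-moving probe sets were built on expressed sequence tags, against 34.1% of the passing probe sets of other genes with at least 2. RefSeq transcripts were the source of 24.1% of up-moving and 12.2% of down-moving probe sets, against 22.5% in the other genes. Probe sets with a 7-digit number made up 19.3% of the up-moving class (16) and 2.70% of the down-moving class (2), against 6.32% in the other genes. Endings that mark probes shared by several transcripts (_s_at) were found in 26.5% of up-moving and 17.6% of down-moving probe sets, against 37.1%. These shares describe probe sets chosen by their values, and carry no test.

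**Figure D4:**
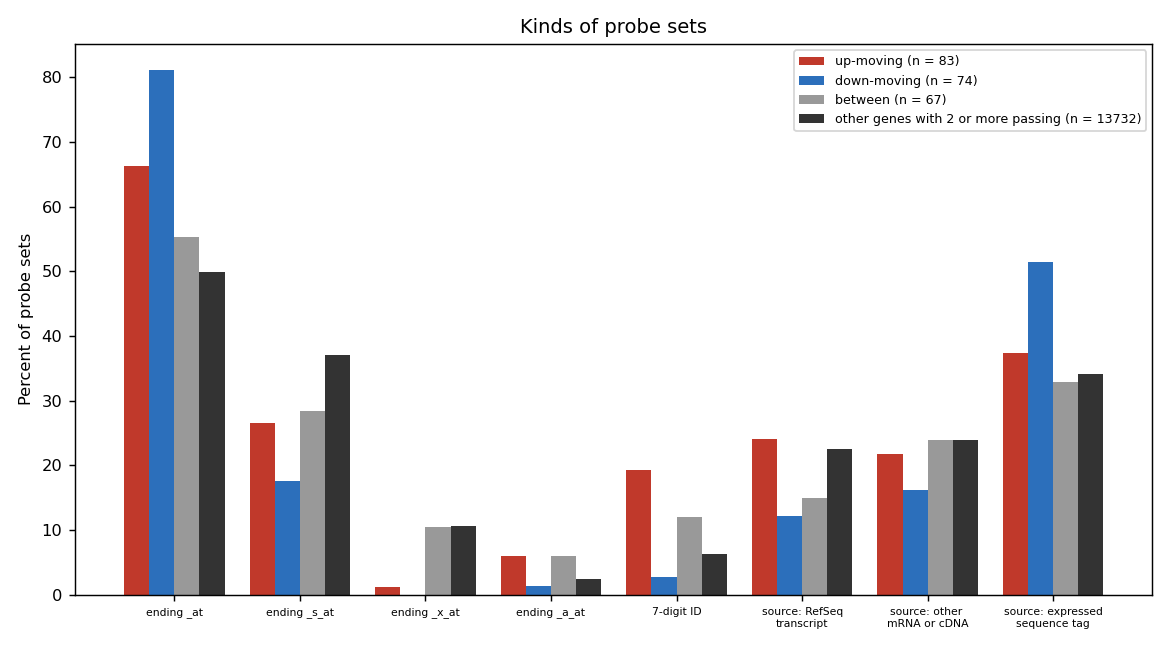
Share of probe sets, in percent, by name ending, number length and source record, for the up-moving, down-moving and between probe sets of the 62 genes and the passing probe sets of other genes with at least 2. The share with a 7-digit number was 19.3% in the up-moving class and 2.70% in the down-moving class.

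Some probe sets shared their source. A single source record stood behind 2 probe sets of a member in 7 cases. In 1 of these, ENSA, an inhibitor of the PP2A phosphatase in mitosis, the 2 probe sets from a single record fell in opposite classes: 228852_at changed by 1.18 at 48 h and by 0.29 at 24 h (adjusted p = 0.259), and 228851_s_at by -0.81 at 48 h and -0.32 at 24 h (adjusted p = 0.122). ENSA was noted after its values were seen. In the gene table, 44 of the 62 genes (71.0%) overlapped another annotated gene, against 62.5% of the other genes with 2 or more passing probe sets; whether a probe set read RNA of an overlapping gene was not tested.

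One value per gene hides these moves. Averaged over its passing probe sets, a member changed by between -0.81 and 1.04 at 48 h with a median of 0.14, and 36 of the 62 lay within 0.3 of 0. Keeping only the probe set with the highest mean signal would pick an up-moving probe set in 25 genes, a down-moving one in 20 and one between in 17. These counts use the 48 h arrays and are a description.

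The Kbr and control arms moved in opposite directions with time. From 24 h to 48 h the balance changed by a median of 1.00 in Kbr cultures, with all 62 genes above 0, and by a median of -0.45 in control cultures, with 55 genes below 0. In 8 genes the control balance moved more than the Kbr balance. Since the 48 h arrays chose the genes, part of this split is built in and no test was made.

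Machinery for 3′ ends, RNA decay and splicing was read from one probe set per gene, the brightest. Of 18 tested genes of nonsense-mediated decay and the exosome, the complex that degrades RNA from its 3′ end, 10 were called higher at 24 h and 1 lower, where 11.5% of all genes were called higher and 18.8% lower. EIF4A3 and RBM8A, core proteins of the exon junction complex, rose by 0.59 ± 0.10 (adjusted p = 0.00208) and 0.69 ± 0.13 (adjusted p = 0.00418), while the exosome nuclease EXOSC10 fell by 0.32 ± 0.09 on the log2 scale (adjusted p = 0.023). These 3 were picked after their values were seen. EXOSC10 was not called on leaving out any Kbr 24 h array or control 24 h replicate 1 or 3. Of 16 splicing regulators of the SR family and the CLK and SRPK kinases that phosphorylate SR proteins, 6 were called higher and 0 lower (10 and 1 with the replicate block). Of 20 genes of 3′ end processing, 4 were called higher and 0 lower (5 and 3 with the block). The median 24 h changes of the lists were 0.33, 0.36 and 0.16, against -0.06 over all genes.

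The balance was called in 0 of 11 decay genes, 1 of 13 splicing genes and 0 of 15 genes of 3′ end processing with 2 or more passing probe sets, and of the listed genes FIP1L1 and PAPOLG were members. That is 1 of 39 listed genes, against 5.20% of all genes, and with so few genes nothing is read from it. The decay count of 10 was 6 on leaving out Kbr 24 h replicate 1 or 2 or control 24 h replicate 2, and 5 on leaving out control 24 h replicate 1. The splicing count of 6 was 2 on leaving out Kbr 24 h replicate 1, and 3 on leaving out Kbr 24 h replicate 2 or control 24 h replicate 1. The 3′ end count of 4 was 2 on leaving out Kbr 24 h replicate 1, and 1 on leaving out Kbr 24 h replicate 2 or 3 or control 24 h replicate 1. For these list counts the shares over all genes were not counted.

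The limit of 0.8 fell within a run of similar genes. Just inside were SCAF11 (2.66 and -0.80 at 48 h), ATP6V0A2 (1.82 and -0.80), USP48 (1.59 and -0.80) and RASAL2 (0.81 and -1.01). Just outside were GPATCH2L (2.77 and -0.80, short of the limit before rounding), PSMA5 (0.79 and -1.83), USP14 (0.77 and -1.08) and RNF217 (0.82 and -0.77). The 24 h shift was 0.60 in ATP6V0A2 (adjusted p = 0.378) and 0.62 in RASAL2 (adjusted p = 0.192).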

How the data were processed

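The values used were the deposited log2 signals of 12 Affymetrix arrays, made with GCRMA per the submitters' processing notes; its version was not given in the sources used here. Their number limits the precision. Of 54675 probe sets, 41091 had 1 gene symbol in the platform annotation, 1801 several, 11721 none listed and 62 were controls; all 62 member symbols were found in the RefSeq gene table (GRCh38.p14). Probe set changes and balances were fitted with limma 3.58.1 in R 4.3.3 (4 group means, eBayes, Benjamini-Hochberg) on all 19345 passing probe sets and on 1 balance for each of 5192 genes. Tests were made at 24 h only, since 48 h values chose the genes; p-values measure the spread between the labelled biological replicates. Simulated data with known changes were used to check the fits. The members, gene lists, roles and tests were chosen with earlier results of these data known. Genes were named by rule: the 12 largest called 24 h shifts without overlap, the 10 largest 48 h shifts, members with both probe sets called (up to 12), the 4 nearest to the limits on each side and the 5 with most probe sets. Others are said to be chosen after their values were seen. Same-numbered arrays deviated together (r = 0.251 to 0.609 over 18 pairs of arrays, across probe sets), so the numbers may pair the arrays. The labels do not say so, and the main fit did not use the numbers. For arrays of different number r was -0.357 to -0.022 over 36 pairs. Deviations from a group mean sum to 0 within the group, so these negative values are in part built in. Alternatives were another limit, filter, scaling, offset, p threshold, the replicate block, array weights, no shared-probe sets, the 24 h groups alone and each array left out; a filter on the 48 h arrays alone and signals under 4 set to 4 were added after seeing the data.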

Additional observations from a re-analysis of the deposited data

Results flagged for a closer look

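In all, 3 probe sets of 2 members moved in every Kbr array the other way at 24 h than at 48 h. Over all 19345 passing probe sets, 23.5% were higher and 24.8% lower in every Kbr 24 h array than in every control 24 h array. How many of them changed direction at 48 h was not counted. BICD1 1554020_at changed by -0.26 at 24 h (adjusted p = 0.678, limma) and by 1.71 at 48 h. Every Kbr 24 h array was below every control 24 h array, but by little (highest Kbr 5.73, lowest control 5.76). ENAH 228310_at changed by 0.68 at 24 h (adjusted p = 0.0226, limma) and by -0.92 at 48 h. ENAH 222434_at changed by 0.19 at 24 h (adjusted p = 0.206, limma) and by -0.49 at 48 h. The difference between the times was not tested, since the 48 h arrays chose these genes.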

How the results depend on the processing

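The number of genes meeting the rule was 62 with limits of 0.8, 193 with 0.5, 25 with 1.0 and 28 after a linear offset of 32; leaving out 1 array at a time gave 49 to 91, the last without control 48 h replicate 3. The 27 called balances became 10 at an adjusted p below 0.01, where the share over all genes was not counted. On leaving out 1 array they became 11 to 30, where 2.18% to 5.57% of all genes were called. The 29 up-moving probe sets called higher became 12 at 0.01, 45 with the replicate block, 48 with array weights and 16 to 39 on leaving out 1 array. The 26 down-moving ones called lower became 13 at 0.01, 42 with the block and 16 to 29 on leaving out 1 array. With the block, 18.7% of all passing probe sets were called higher and 24.2% lower, and the other shares were not counted. Without probe sets ending _s_at or _x_at, members were chosen anew among fewer probe sets, which left 46 genes. There 17 up-moving probe sets were called higher and 17 down-moving ones lower, so these counts do not compare with 29 and 26. With the block, 3 genes of 3′ end processing, 2 decay genes and 1 splicing gene were called lower and 10 splicing genes higher. Of all 10581 genes, 3013 were lower and 1884 higher with the block. Leaving out 1 array gave 1 to 5 higher for 3′ end processing and 5 to 10 higher and 0 to 1 lower for decay. For splicing it gave 2 to 6 higher and 0 to 1 lower. With the block, 39 balances were called, where 11.1% of all genes were; it ended no call of a member's balance. The BICD1 shift ran from -0.20 to 0.73 on leaving out 1 array, turning to -0.13 on leaving out Kbr 24 h replicate 3 or control 24 h replicate 1 and to -0.20 on leaving out control 24 h replicate 2, with no call. A filter at 6 put other pairs in place of the dim ones and ended the calls of IVNS1ABP (shift 0.36), WDFY3 (0.32), UROD (0.03) and AGO3 (0.19, against 1.07). Setting signals under 4 to 4, added after seeing the data, gave 30 called balances, where 6.45% of all genes were called. Calls of single probe sets were recomputed as counts. The cause of these differences was not tested.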
